A study of Drosophila melanogaster with 6 samples.

Results

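The genes described here are 9 genes of lipid metabolism, chosen by their symbol: SREBP, ACC, FASN1, Desat1, mdy, Lsd-1, Lsd-2, whd and Mtpalpha. All 9 were found among the 14026 genes of the deposited table, and the choice by symbol used no threshold on a measured value, though it was made with earlier results of these data known. They cover a regulator of fatty acid synthesis, the synthesis and desaturation of fatty acids, the making of triglyceride, the coat of lipid droplets and the entry of fatty acids into mitochondrial oxidation. Drosophila melanogaster of the wild-type strain Oregon-R gave total RNA of the adult midgut for 3 groups of 2 libraries each. At 4 to 5 days of age, 1 group had been given sucrose (Mock day 0) and the other the treatment Pe, an unexplained abbreviation of the labels (Pe day 0). The group Pe day 3 was 7 to 8 days old, with no sucrose group of that age among the labels, so treatment, day and age cannot be told apart in its comparison with Mock. The series was designed around the start and the end of midgut regeneration.

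The fly midgut takes up dietary fat, rebuilds it into triglyceride inside enterocytes, keeps part of it in lipid droplets and exports the rest on lipoproteins. SREBP is a membrane-bound transcription factor that switches on fatty acid synthesis genes when it is cleaved; in flies it answers to phospholipid rather than to sterol. ACC makes malonyl-CoA, the building block that FASN1 joins into saturated fatty acids, and Desat1 puts a double bond into them. The product of mdy, a diacylglycerol acyltransferase, adds the last acyl chain of triglyceride. Lsd-1 and Lsd-2 are the fly perilipins, which coat lipid droplets and govern access of lipases to them. The product of whd is the carnitine palmitoyltransferase that lets long-chain fatty acids into mitochondria, and Mtpalpha encodes a subunit of the trifunctional protein that carries out later steps of their oxidation.

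The deposited table holds the authors' comparison of each Pe group with Mock and a mean over all 6 libraries, with no value per library. Levels below are therefore group means implied by that mean and both fold changes, in normalized counts (reads divided by a size factor for each library), and they have no spread of their own. Estimated depths were 1.76e7 to 2.01e7 reads per library. The header does not name the groups; the order in the table's title (day 0 first, day 3 second) was used, and all directions depend on it. A gene is called changed at an adjusted p of 0.05 or below. Summed normalized counts stood at -0.67 (log2) in Pe day 0 relative to Mock and at -0.03 in Pe day 3, while the median gene stood at 0.03 and 0.01, so a scale of library totals would raise every gene by 0.67 at day 0. All 8 enterocyte markers were detected, with 1052417 normalized counts in Mock summed over them, and the markers of fat body and oenocytes are given beside the results they move with. Total RNA of a whole tissue was measured, so fewer cells of a type and less RNA per cell cannot be told apart.

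In Mock the genes spanned a wide range of levels. Per kilobase of merged exon, Desat1 stood first with 5504 normalized counts, above 96.9% of the 11918 detected genes that have a length. It was followed by whd with 3091, Lsd-2 with 1836, SREBP with 1260 and Mtpalpha with 1234. FASN1 had 657, Lsd-1 had 547, ACC had 199 and mdy had 89.1 normalized counts per kilobase, the last just above the middle of detected genes (51.9% lay lower). The order of the 9 genes in Mock was the same per kilobase of the longest transcript, a length chosen after seeing the data. Neighbours in this order cannot be told apart or ranked beyond their spread, because no value per library was available.

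**Figure D1:**
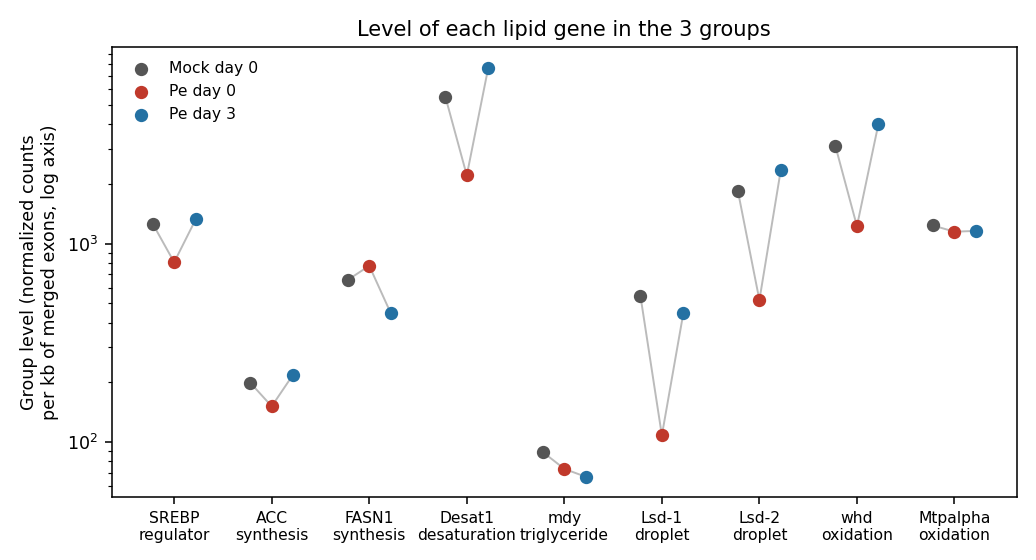
Level of each of the 9 lipid genes in Mock day 0 (grey), Pe day 0 (red) and Pe day 3 (blue), as model-implied group means in normalized counts per kilobase of merged exons on a log axis. The levels of Desat1, Lsd-1, Lsd-2 and whd dip at Pe day 0 on every scale tried, SREBP and ACC dip less and lie at or above Mock with library totals, and FASN1 has its highest level at Pe day 0, where its difference from Mock was not called on the authors' scale.

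The genes lie on several chromosomes (BDGP6.54 annotation). SREBP lies on 3L (19793935 to 19798979, plus strand), Desat1 on 3R (12439600 to 12447616, plus strand) and Lsd-1 on 3R (23763857 to 23766662, plus strand). Lsd-2 lies on X (15069127 to 15076220, minus strand). FASN1 (3056598 to 3068177, plus strand), mdy (16816660 to 16826964, plus strand) and Mtpalpha (9573563 to 9576769, minus strand) lie apart from each other on 2L, and ACC and whd lie on 2R. The annotation places the microRNA gene mir-33 within SREBP on the same strand, with 0 exon bases shared. Exons of CG10214 on the opposite strand overlap 7.35% of the exon bases of Lsd-1, and those of asRNA:CR45134 and CG11777 overlap 5.73% and 5.39% of those of whd; since use of strand in counting is not given in the sources used here, reads from these stretches cannot be assigned with certainty. In the same way, FASN1 and Desat1 have paralogs (FASN2 and Desat2) to which the authors' counting could have assigned shared reads.

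Flies of like age, with and without Pe, were set against each other first. Both perilipin genes, the desaturase gene Desat1 and the carnitine palmitoyltransferase gene whd fell at Pe day 0, by 2.49-fold to 5.05-fold in the authors' deposited table, and all 4 stayed lower with library totals. SREBP and ACC fell by less on the authors' scale, and those calls did not hold with library totals. In all, 6 of the 9 genes were lower and 0 higher in the authors' deposited table (0 also at an unadjusted DESeq2 p under 0.05), whereas on the scale of library totals 4 genes fell and 2 rose. Of all 10393 genes tested 46.6% were called, 23.6% lower and 23.0% higher. Library totals changed these shares to 8.97% lower and 53.4% higher. The median log2 fold change of the 9 genes was -0.65, beside 0.03 over all genes tested.

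The perilipin genes fell most. Lsd-1, whose product sits on lipid droplets and controls lipolysis, had 1072 normalized counts in Mock, 212 in Pe day 0 and 874 in Pe day 3. Pe day 0 thus held the lowest level of the 3 groups. In the authors' deposited table Lsd-1 fell by 2.34 on the log2 scale (SE 0.30, DESeq2 adjusted p = 1.41e-13), and 378 of the genes tested (3.64%) lay lower. Lsd-2, whose product shields stored fat, had 8443 normalized counts in Mock, 2390 in Pe day 0 and 10852 in Pe day 3. It fell by 1.82 on the log2 scale (SE 0.17, adjusted p = 1.32e-24) in the authors' deposited table, with the smallest p of the 9 genes. With library totals the falls were smaller but still called, at -1.67 for Lsd-1 and -1.15 for Lsd-2. Over all 7 alternatives the adjusted p ran from 6.84e-14 to 1.38e-07 for Lsd-1 and from 2.32e-25 to 1.31e-10 for Lsd-2. The ratio of Lsd-2 to Lsd-1, in which the scale cancels, was 3.36 in Mock, 4.80 in Pe day 0 and 5.29 in Pe day 3 per kilobase.

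Of the oxidation genes, whd was called at Pe day 0 and Mtpalpha was not. For whd the levels were 9815 normalized counts in Mock, 3887 in Pe day 0 and 12700 in Pe day 3. The Pe day 0 level was the lowest of the 3. A fall of whd by 1.34 on the log2 scale (SE 0.20, adjusted p = 2.37e-10) stood in the authors' deposited table, and the call held with library totals (-0.67; over all 7 alternatives the adjusted p ran from 9.35e-11 to 0.00183). Mtpalpha had 3562, 3314 and 3347 normalized counts in Mock, Pe day 0 and Pe day 3. Its change in the authors' deposited table was -0.10 (SE 0.15, adjusted p = 0.597), with a 95% interval from -0.40 to 0.19. The direction turned with library totals, where Mtpalpha was called higher (0.56; over all alternatives the adjusted p ran from 0.000383 to 0.676). Independent of scale, there were 2.505 counts of whd for each count of Mtpalpha per kilobase in Mock, 1.07 in Pe day 0 and 3.45 in Pe day 3.

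The regulator and the first enzyme of fatty acid synthesis had values nearer to 0. SREBP, the regulator, had 5110 normalized counts in Mock, 3267 in Pe day 0 and 5367 in Pe day 3, and ACC had 1807, 1374 and 1987. Both were lowest in Pe day 0 on the authors' scale. SREBP fell by 0.65 on the log2 scale (SE 0.12, adjusted p = 2.39e-07) in the authors' deposited table, while with library totals its value was above 0, at 0.02, and not called (over all alternatives the adjusted p ran from 6.37e-08 to 0.886). ACC fell by 0.39 (SE 0.13, adjusted p = 0.00527) in the authors' deposited table, while with library totals its direction turned to 0.27 above Mock, which was not called (over all alternatives the adjusted p ran from 0.00258 to 0.517). As a share of all reads, scaled to a common library total (CPM), SREBP stood at 229, 232 and 245 CPM and ACC at 80.9, 97.7 and 90.8 CPM in Mock, Pe day 0 and Pe day 3.

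FASN1 and Desat1, which act one after the other on the growing stock of fatty acids, had opposite signs. FASN1 had 5741 normalized counts in Mock, 6765 in Pe day 0 and 3910 in Pe day 3. It stood at 0.24 at Pe day 0 in the authors' deposited table (SE 0.16, adjusted p = 0.219), with a 95% interval from -0.07 to 0.55. With library totals FASN1 was called higher (0.90; over all alternatives the adjusted p ran from 4.66e-08 to 0.288). Desat1 had 13695 normalized counts in Mock, 5492 in Pe day 0 and 19121 in Pe day 3. The desaturase gene fell by 1.32 on the log2 scale (SE 0.18, adjusted p = 5.85e-12) in the authors' deposited table and by 0.65 with library totals, where it was still called. Desat1 counts per FASN1 count, per kilobase and thus free of the scale, were 8.38 in Mock, 2.85 in Pe day 0 and 17.2 in Pe day 3. FASN1 counts per ACC count were 3.29, 5.10 and 2.04. These ratios have no test, since the errors of genes from the same libraries are not independent.

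The triglyceride synthesis gene mdy was the least abundant, with 240 normalized counts in Mock, 197 in Pe day 0 and 180.0 in Pe day 3. At day 0 its change in the authors' deposited table was -0.28 (SE 0.21, adjusted p = 0.288), with a 95% interval from -0.70 to 0.14, and it turned to 0.39 with library totals, also not called. The ratio of Lsd-2 to mdy per kilobase was 20.6 in Mock, 7.08 in Pe day 0 and 35.3 in Pe day 3.

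**Figure D2:**
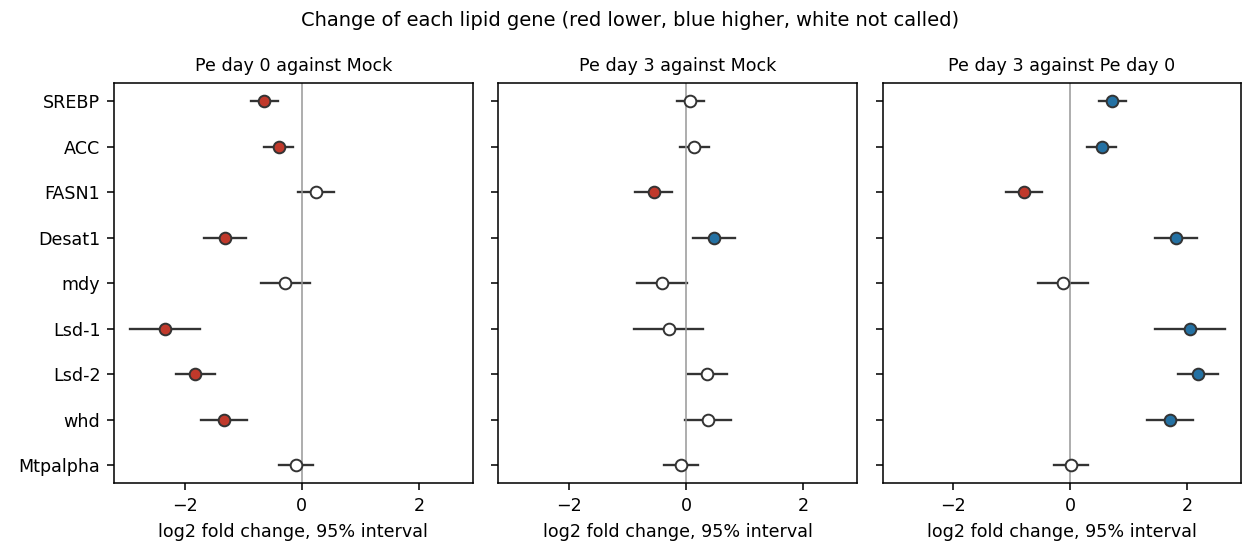
Log2 fold change of each lipid gene with its 95% interval in the 3 comparisons; red points were called lower, blue points higher and white points were not called. At Pe day 0 the called points run from -2.34 for Lsd-1 to -0.39 for ACC, where the calls of ACC and SREBP do not hold with library totals; at Pe day 3 only FASN1 and Desat1 are called.

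**Figure D3:**
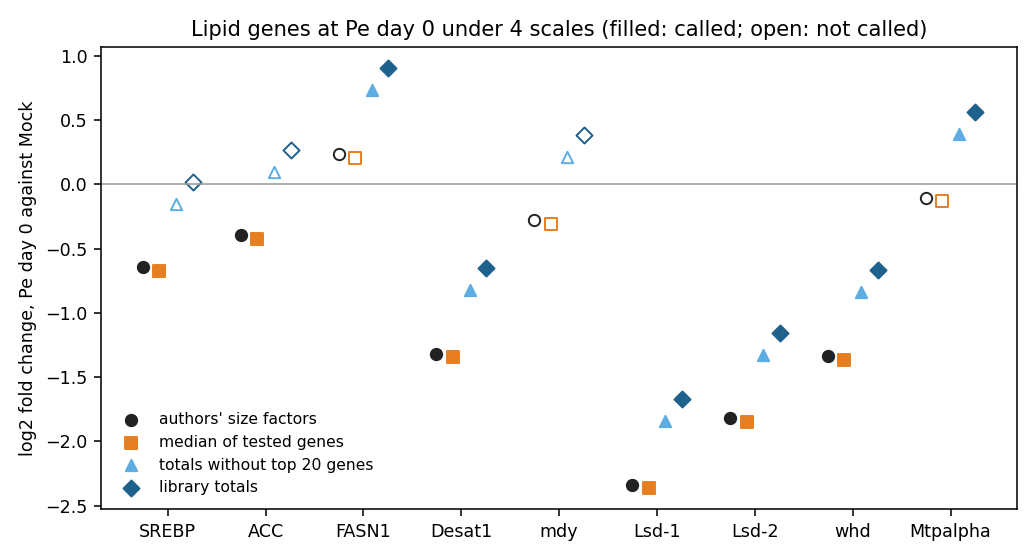
Log2 fold change at Pe day 0 against Mock under the authors' size factors (circles), with the median of tested genes set to 0 (squares), with totals that leave out the 20 most abundant genes (triangles) and with library totals (diamonds); filled symbols were called. Desat1, Lsd-1, Lsd-2 and whd stay below 0 and filled in all 4, while SREBP, ACC, mdy and Mtpalpha reach or cross 0 with library totals.

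Markers of other lipid-rich tissues moved with these genes. Of 5 tested fat body markers 4 were lower at Pe day 0 and 0 higher, and their summed level went from 6604 normalized counts in Mock to 1867 in Pe day 0 and 6489 in Pe day 3 (9 genes). The level in Mock came from Yp1 (3562), Yp2 (1332), Yp3 (1182) and apolpp (512), and the other 5 genes of the list, Fbp1, Fbp2, Lsp1alpha, to and Lsp2, had at most 15.8 normalized counts in any group; Fbp1, Fbp2, Lsp1alpha and Lsp2 are known mainly from the larval fat body. All 5 oenocyte markers were lower at Pe day 0, summing to 5598, 987 and 1859 normalized counts in Mock, Pe day 0 and Pe day 3. Most of this came from Cyp4g1 (4947 in Mock), while svp had 18.8 in Mock. Desat2 of the oenocyte list, apolpp of the fat body list and Tk of the enteroendocrine list are also in the lipid lists described below. These marker lists are thus not separate from the lipid genes. With library totals 3 markers of each list were still lower. Of the 8 enterocyte markers 3 rose and 4 fell, against 4 and 3 on the scale of library totals, and their sum, most of it from trypsin genes, was 396324 in Pe day 0. Visceral muscle markers were lower in 7 of 8 cases (5 lower and 1 higher with library totals), and 6 of 8 enteroendocrine markers were lower (2 lower and 2 higher with library totals). Haemocyte markers were lower in 2 of 5 cases and those of the Malpighian tubule and hindgut in 1 of 5, with 0 higher in both lists, and the counts were the same with library totals. Neuronal and eye markers showed 0 calls of 6 (1 lower at an unadjusted DESeq2 p under 0.05, and 1 call of a rise on library totals). Of 7 markers for stem cells and enteroblasts 4 rose and 2 fell, or 5 and 2 on library totals, with sums of 4919, 8865 and 5747 in Mock, Pe day 0 and Pe day 3. Most of each sum came from peb alone (2636, 7168 and 3362). The 2 that fell were esg (671 in Mock, 281 in Pe day 0) and mira (946 and 279). Among all genes tested 23.6% were lower and 23.0% higher, or 8.97% and 53.4% with library totals. The part of these tissues in the fall of the lipid genes was not tested.

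Next, Pe day 3 was set against Mock, groups that differ in age. FASN1 was lower and Desat1 was higher in the authors' deposited table, and 7 of the 9 genes were not called. Over all 8316 genes tested 17.7% were called, 8.75% higher and 8.92% lower, and on library totals 9.72% and 8.04%. FASN1 fell by 0.55 on the log2 scale (SE 0.16, DESeq2 adjusted p = 0.00512) in the authors' deposited table, to the lowest level of the 3 groups, and 610 of the genes tested (7.34%) lay lower. Desat1 stood at 0.48 (SE 0.18, adjusted p = 0.0490) in the authors' deposited table, at the edge of the threshold; the call was lost when p was adjusted over all genes with a p (adjusted p = 0.0703) or with the median of tested genes set to 0 (adjusted p = 0.0543), and over all 8 alternatives the adjusted p ran from 0.0178 to 0.0703. The changes of both genes were under 1.5-fold.

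Besides Desat1, the genes that had fallen most at day 0 (Lsd-1, Lsd-2 and whd) were not called against Mock at day 3. Their intervals leave room for differences from Mock, so a return to its level is not shown. In the authors' deposited table Lsd-2 was at 0.36 (SE 0.17, adjusted p = 0.146) and whd at 0.37 (SE 0.20, adjusted p = 0.225). The 95% intervals ran from 0.02 to 0.70 for Lsd-2 and from -0.02 to 0.77 for whd. Lsd-1 stood at -0.29 (SE 0.30, adjusted p = 0.618) in the authors' deposited table with a 95% interval from -0.88 to 0.29. SREBP (0.07, SE 0.12), ACC (0.14, SE 0.13) and Mtpalpha (-0.09, SE 0.15) were also not called in the authors' deposited table. The intervals of these 3 genes lay between -0.38 and 0.39. The value of mdy was -0.41 (SE 0.22, adjusted p = 0.216) in the authors' deposited table. Fat body markers showed 0 calls among 4 tested at day 3 (DESeq2; 0 also at an unadjusted p under 0.05), and 2 of 4 oenocyte markers were still lower. Enteroendocrine markers had 4 higher and 0 lower of 8. Of 8 enterocyte markers 4 rose and 1 fell, with the fall not called on library totals. Of 6 neuronal and eye markers the photoreceptor genes ninaE and Arr2 were called higher (7.13, SE 1.66, and 6.72, SE 2.14). They had 171 and 65.1 normalized counts in Pe day 3 and at most 1.22 and 0.70 in the other groups. Haemocyte markers had 1 lower of 4, markers for stem cells and enteroblasts 1 higher of 7, and those of visceral muscle and of the Malpighian tubule and hindgut 0 calls of 8 and of 4 (DESeq2; 0 also at an unadjusted p under 0.05). Among all genes tested at day 3, 8.75% were higher and 8.92% lower. The part of these tissues in the values of the lipid genes was not tested.

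**Figure D4:**
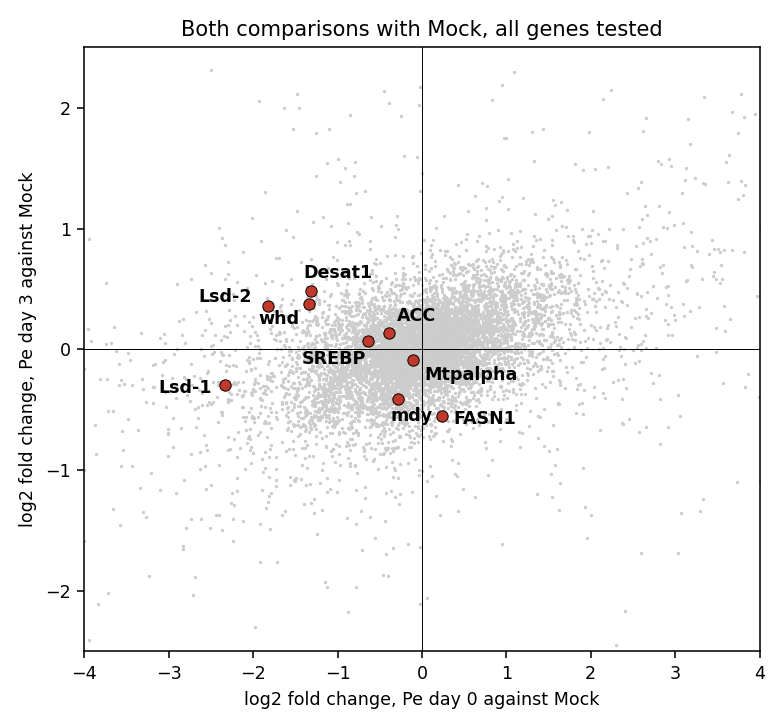
Log2 fold change against Mock at Pe day 0 (horizontal) and at Pe day 3 (vertical) for the genes tested in both comparisons (grey), with the 9 lipid genes in red; 186 genes lie outside the axes, and both axes share the Mock libraries. Lsd-2, whd and Desat1 lie left of 0 and above it, Lsd-1 lies left and below, and FASN1 lies right and below, and with library totals as the scale all points move right by 0.67.

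The third comparison, Pe day 3 against Pe day 0, is not in the deposited table and was computed from its fold changes with the variance shared through Mock removed. Of the 9 genes 6 were higher at day 3 and 1 lower, beside 52.7% called, 27.4% higher and 25.3% lower, among all 8316 genes tested. Library totals gave 4 higher and 3 lower of the 9, beside 9.36% and 63.1% of all genes. Lsd-2 rose by 2.18 (SE 0.17, Wald test adjusted over all genes from the DESeq2 values, adjusted p = 5.64e-35), or 4.54-fold, and 97.2% of the genes tested had a lower value. Lsd-1 rose 4.12-fold (2.04, SE 0.30, DESeq2-based adjusted p = 1.42e-10), Desat1 3.48-fold (1.80, SE 0.18) and whd 3.27-fold (1.71, SE 0.20). All 4 rises were called with library totals as well, at 1.54, 1.41, 1.16 and 1.07 for Lsd-2, Lsd-1, Desat1 and whd. Markers of other tissues moved with them between the days. Fat body markers rose in 4 of 4 cases (3 on library totals), oenocyte markers in 3 of 4 (2) and visceral muscle markers in 7 of 8 (6, with 1 lower). All 8 enteroendocrine markers rose (5 on library totals), as did 4 of 6 neuronal and eye markers (2, with 1 lower). Of haemocyte markers 2 of 4 and of Malpighian tubule and hindgut markers 1 of 4 rose, and 0 did on library totals. Enterocyte markers had 4 higher and 3 lower of 8, or 3 and 4 on library totals. For stem cells and enteroblasts 2 of 7 markers rose and 3 fell, or 2 and 5 on library totals. Whether these tissues had a part in the rises was not tested.

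Going the other way, FASN1 fell by 0.79 on the log2 scale from day 0 to day 3 (SE 0.16, DESeq2-based adjusted p = 2.91e-06), a 1.73-fold fall that was 2.69-fold with library totals. SREBP (0.72, SE 0.12) and ACC (0.53, SE 0.13) were called higher on the authors' scale only, with values of 0.08 and -0.11 with library totals, neither of them called. The values of mdy (-0.13, SE 0.22) and Mtpalpha (0.01, SE 0.15) were not called on the authors' scale. With library totals mdy (-0.77) and Mtpalpha (-0.62) were called lower. Across the 3 comparisons, the calls of Lsd-1, Lsd-2, Desat1 and whd at day 0 and between the days, and those of FASN1 at day 3 and between the days, held on each of the 4 scales tried.

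Genes that act beside these were taken from 9 lists of lipid metabolism, 135 genes in the table besides the 9. At Pe day 0, 74 of 130 tested were lower (56.9%) and 18 higher (13.8%) on the authors' scale, with a median of -0.58, beside 23.6% and 23.0% of all genes tested. With library totals 39 were lower and 49 higher (37.7%), with a median of 0.09, beside 8.97% lower and 53.4% higher of all genes. The share lower was thus above, and the share higher below, that of all genes on both scales. At Pe day 3 against Mock 12 of 124 were higher (9.68%) and 19 lower (15.3%), with a median of -0.05, beside 8.75% and 8.92% of all genes. Between the days 73 of 124 rose (58.9%) and 15 fell (12.1%), beside 27.4% and 25.3% of all genes. On library totals 34 rose (27.4%) and 48 fell (38.7%), beside 9.36% and 63.1% of all genes.

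Peroxisomal oxidation genes stood lowest among the lists at day 0. In this list 13 of 15 were lower and 1 was higher, beside 23.6% and 23.0% of all genes tested, and the median was -1.28. With library totals 10 were lower and 2 higher, beside 8.97% and 53.4% of all genes. CG9527, an acyl-CoA oxidase gene, fell 4.84-fold in the authors' deposited table (-2.27, SE 0.11), and Cat, the catalase gene, rose (0.47, SE 0.09). At Pe day 3 the list still had 5 lower and 0 higher of 14, beside 8.92% and 8.75% of all genes. The transporter gene Pmp70 led (-0.79, SE 0.15) in the authors' deposited table.

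In the mitochondrial oxidation list, besides whd and Mtpalpha, 13 of 19 genes were lower and 3 higher at day 0. The shares of all genes tested were 23.6% and 23.0%. With library totals 6 of all 21 were lower and 7 higher, beside 8.97% and 53.4% of all genes. CRAT, a carnitine acetyltransferase gene, fell 3.07-fold in the authors' deposited table (-1.62, SE 0.14), and CG4860, listed with the acyl-CoA dehydrogenases, rose 2.86-fold (1.52, SE 0.19). CPT2, the partner of the whd product inside the mitochondrion, rose 2.46-fold from day 0 to day 3 (1.30, SE 0.12). At day 3 against Mock the thiolase gene yip2 was higher (0.39, SE 0.12) and the enoyl-CoA hydratase gene CG6543 lower (-0.45, SE 0.13) in the authors' deposited table.

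Around the perilipins, 6 of 8 other genes of the droplet list were lower and 0 higher at day 0, beside 23.6% and 23.0% of all genes. With library totals the whole list of 10 had 3 lower and 2 higher, beside 8.97% and 53.4% of all genes. Jabba, which encodes a droplet protein that anchors histones, fell 3.01-fold in the authors' deposited table (-1.59, SE 0.25). Between the days 7 of the 8 rose and 0 fell, beside 27.4% and 25.3% of all genes. Fitm, a gene of droplet formation, stood at 0.85 (SE 0.12), a call lost with library totals (0.21). On that scale the whole list of 10, Lsd-1 and Lsd-2 included, had 4 higher and 2 lower between the days. The shares of all genes were then 9.36% and 63.1%.

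Genes of triglyceride and phospholipid synthesis, mdy left out, were lower in 11 of 20 cases and higher in 2 at day 0. The shares of all genes tested were 23.6% and 23.0%. Over the list of 21 this turned to 8 lower and 10 higher with library totals, beside 8.97% and 53.4% of all genes. CG1946, of the DGAT2 family, fell 8.31-fold in the authors' deposited table (-3.05, SE 0.19), whereas pdgy, an acyl-CoA synthetase gene, rose 2.71-fold (1.44, SE 0.15). At day 3 the authors' deposited table had Pis, for phosphatidylinositol synthase, higher (0.45, SE 0.10) and Gpdh, the glycerol-3-phosphate dehydrogenase gene, lower (-0.62, SE 0.13).

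Of the other genes of fatty acid synthesis 3 of 10 were lower and 1 higher at day 0, beside 23.6% and 23.0% of all genes tested. With library totals the list of 12 had 3 lower and 7 higher, beside 8.97% and 53.4% of all genes. FASN3, a paralog of FASN1, fell 7.14-fold in the authors' deposited table (-2.84, SE 0.37), and the malic enzyme gene Men-b rose 2.17-fold (1.12, SE 0.19). FASN2, the other paralog, fell 3.23-fold at day 3 in the authors' deposited table (-1.69, SE 0.33). There 4 of the 10 were lower and 1 higher, AcCoAS for acetyl-CoA synthetase (0.51, SE 0.14), beside 8.92% and 8.75% of all genes. From day 0 to day 3 the mitochondrial citrate carrier gene sea rose (1.12, SE 0.20) and Men-b fell (-1.62, SE 0.19).

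Among genes of desaturation and elongation other than Desat1, 9 of 18 were lower and 1 higher at day 0. The shares of all genes tested were 23.6% and 23.0%. With library totals 5 of 19 were lower and 5 higher, beside 8.97% and 53.4% of all genes. The desaturase gene Fad2 fell 5.15-fold at day 0 (-2.36, SE 0.34) and was still 2.83-fold lower at day 3 (SE 0.34) in the authors' deposited table. The elongase gene Baldspot rose at both times in the authors' deposited table (0.67, SE 0.12, and 0.75, SE 0.12). Desat2, the close relative of Desat1, rose 3.62-fold between the days (1.86, SE 0.28).

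Calls on the genes that process SREBP depended on the scale. Of SCAP, S1P and S2P, the escort and the proteases that release the active factor, only SCAP was called at day 0 on the authors' scale, where it rose by 0.37 (SE 0.13, DESeq2 adjusted p = 0.0148) in the authors' deposited table while SREBP fell on that scale. At an unadjusted DESeq2 p under 0.05, 2 of the 4 genes of this list, SREBP among them, were lower on the authors' scale. With library totals SCAP, S1P and S2P were all called higher at day 0, at 1.03, 0.34 and 0.84, beside 53.4% of all genes tested. Between the days SCAP alone was lower on the authors' scale (-0.33, SE 0.13), beside 25.3% of all genes. All 3 were lower with library totals, beside 63.1% of all genes. At day 3 against Mock none of the 3 was called on either scale (0 also at an unadjusted DESeq2 p under 0.05). Regulators of lipid metabolism had 7 lower and 5 higher of 18 at day 0, beside 23.6% and 23.0% of all genes tested. With library totals 0 were lower and 9 higher, beside 8.97% and 53.4% of all genes. In the authors' deposited table the nuclear receptor gene Eip75B rose 2.44-fold (1.29, SE 0.20) and foxo fell (-0.88, SE 0.11), the latter call lost with library totals (-0.22). Hr96, for a nuclear receptor of triglyceride and sterol balance, was higher at day 3 (0.77, SE 0.11), and srl, the fly PGC-1 gene, lower (-0.59, SE 0.18) in the authors' deposited table. Between the days Tk, a peptide hormone gene, rose (0.98, SE 0.11) and Eip75B fell (-1.14, SE 0.19).

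Genes of lipid carriage were lower in 12 of 19 cases and higher in 4 at day 0, beside 23.6% and 23.0% of all genes. With library totals 8 were lower and 6 higher, beside 8.97% and 53.4% of all genes. Npc2d, of the sterol-binding NPC2 family, fell 13.2-fold in the authors' deposited table (-3.73, SE 0.23) and rose 9.31-fold between the days. CG15829, of the acyl-CoA-binding family, rose 7.35-fold at day 0 in the authors' deposited table (2.88, SE 0.24). At day 3 Npc2a was higher (0.86, SE 0.17) and the lipocalin gene NLaz lower (-0.88, SE 0.25) in the authors' deposited table.

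**Figure D5:**
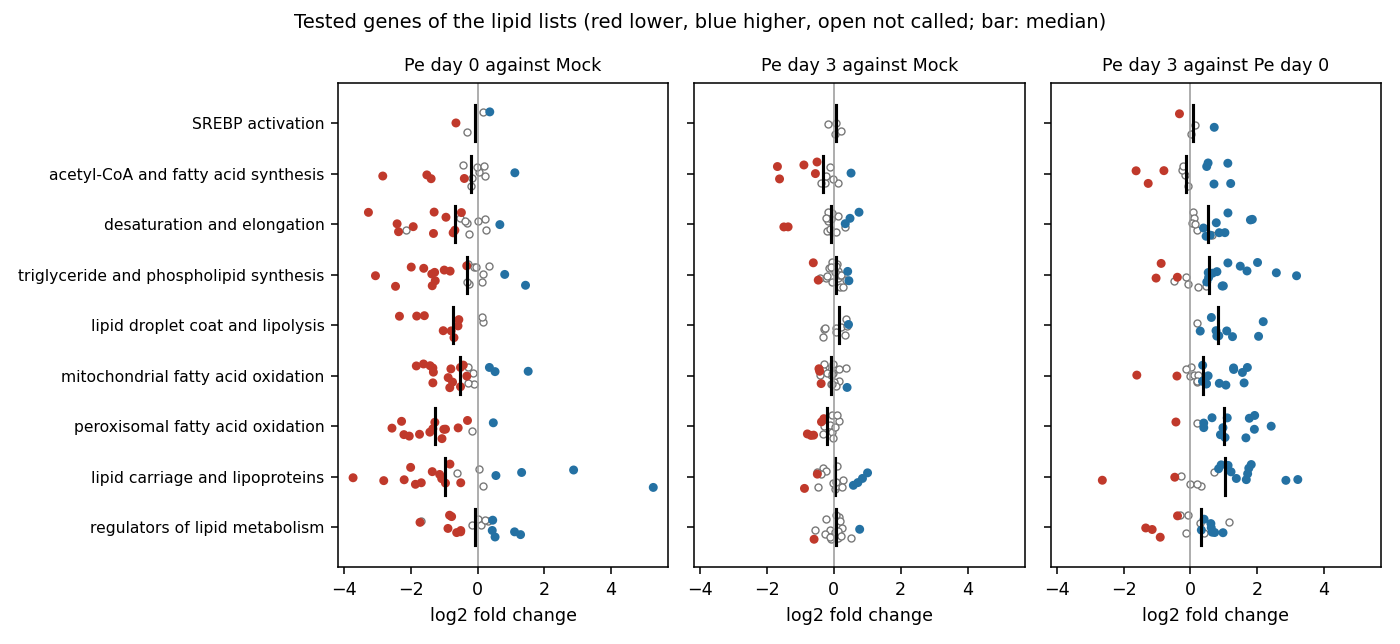
Log2 fold change of every tested gene of the 9 lipid lists, members included, in the 3 comparisons; red points were called lower, blue points higher, open points were not called, and black bars are medians. At Pe day 0 the median lies lowest for peroxisomal oxidation (-1.28); with library totals every value in the left panel moves up by 0.67 and the medians of 5 lists rise above 0.

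Across the 3 groups, the genes nearest to Lsd-2 in their pair of fold changes against Mock, among 6840 genes with a mean of at least 100 normalized counts, were CG3635 (distance 0.05 in log2 units), CG46313 (0.06) and CG9485 (0.08). CG3635 stood at -1.79 at day 0 and 0.33 at day 3 in the authors' deposited table. Nearest to FASN1 were mRpS31, for a mitochondrial ribosomal protein (0.03), CG10184 (0.03) and CG8005 (0.05). The values of mRpS31 in the authors' deposited table were 0.24 at day 0 (SE 0.17) and -0.52 at day 3 (SE 0.17). Neither mRpS31 nor FASN1 was called at day 0, and the distances to FASN1 are smaller than these standard errors. These distances rest on 3 group values and on comparisons that share the Mock libraries.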

How the data were processed

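Per the labels' protocols, RNA was isolated with TRIzol and libraries were built with an Illumina TruSeq RNA kit. Samples were grouped by title. The labels do not say whether the libraries of a group came from separate dissections, so the error behind each p-value is that among the libraries at hand and could be technical only. The submitters' processing notes name, for build BDGP6, DESeq2 1.22.0 and Salmon 0.11.3, and also fastp 0.19.5 and CASAVA 1.8. Those notes give no settings, annotation release or strandedness.

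Per the file headers, the deposited table gives for each of 14026 genes a mean signal (reads divided by a size factor), and for both comparisons a Wald score with its p-value, raw and adjusted, beside the log2 fold change and standard error behind it. A Benjamini-Hochberg adjustment over 10393 genes (mean from 1.24 upward) and 8316 genes (mean from 20.8 upward) gives the authors' adjusted p-values. A reference group common to both follows from the 652 and 153 genes that have a fold change of exactly 0 in the second or first comparison and lie above 0 in the other.

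From the table, size factors (0.788 to 1.43) came from genes with 1 read over all 6 libraries. Group levels followed from the mean and both fold changes, and depths from their sums. For Pe day 3 against Pe day 0 the dispersion was solved from both standard errors (their ratio lay between 0.988 and 1.01 from the 1st to the 99th percentile of genes), and a 2-sided Wald p was adjusted over 8316 genes; the step was tested on simulated data. For 11 genes with no solution the sum of both variances was used. The 95% intervals are normal intervals from the standard error. Gene lengths came from Ensembl release 115 (BDGP6.54), matched by ID for 13928 genes. Of 151 genes in 9 lipid lists, 144 were matched by current or older symbol. Python 3.11.15, numpy 2.4.6, pandas 2.3.3 and scipy 1.17.1 were used.

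The 9 genes, the lipid lists and the lists of cell type markers were chosen with earlier results of these data known. Named genes besides the 9 are, in each list and comparison, the called gene with the smallest p in each direction, and the 3 genes nearest in pattern to the gene with the smallest p among those higher and those lower at Pe day 0; a few are repeated where they act beside another. Alternatives were other scales, filters, thresholds and a standard error that ignores the shared Mock group.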

Additional observations from a re-analysis of the deposited data

Results flagged for a closer look

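For 7 of the 9 genes the difference from Mock was not the same at the 2 times after Pe, by the test of Pe day 3 against Pe day 0 itself (Wald test on the DESeq2 values, adjusted over 8316 genes). Over all genes tested 52.7% passed that test in either direction. The change at day 3 exceeded that at day 0 by 2.18 for Lsd-2, 2.04 for Lsd-1, 1.80 for Desat1 and 1.71 for whd (log2), and these 4 differences were called on all 4 scales. It exceeded it by 0.72 for SREBP and 0.53 for ACC, which were not called with library totals. For FASN1 the difference was -0.79, called on all 4 scales. These differences share no Mock term, since Mock cancels between the times, and age differs between them as well. Groups of 2 libraries were too small to look for single libraries that stand apart.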

How the results depend on the processing

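The scale decided most of what changed. With library totals at Pe day 0 the values of mdy (0.39), Mtpalpha (0.56), ACC (0.27) and SREBP (0.022) turned from negative to positive, and with totals that leave out the 20 most abundant genes so did mdy (0.21), Mtpalpha (0.39) and ACC (0.10). Between the days Mtpalpha turned to -0.62 and -0.41 under these 2 scales and ACC to -0.11 with library totals. Of 207 values of single genes under alternatives 183 kept their direction and call and 10 turned, some of these with a gained or lost call. Of those that kept their direction 10 lost and 4 gained a call. All 10 that turned did so under the 2 scales of totals. Alternatives of filter, threshold or standard error leave the log2 value unchanged and could not turn it. The count of 183 is therefore no measure of how firm the directions are. Of the 2 genes called at Pe day 3 against Mock, 1 was called with the median of tested genes set to 0, 1 with no filter on the mean, 1 at an adjusted p of 0.01 and 0 at a fold of at least 1.5. In that last case 667 genes of the table were called, against 1470. Pe day 0 held the lowest level for 7 of the 9 genes, and for 4 with library totals. For all 144 lipid genes, members included, library totals moved the counts at day 0 from 18 to 51 higher and from 80 to 43 lower. Between the days they moved from 79 to 38 higher and from 16 to 51 lower. Over all genes tested the shares moved at day 0 from 23.0% to 53.4% higher and from 23.6% to 8.97% lower. Between the days those shares moved from 27.4% to 9.36% higher and from 25.3% to 63.1% lower. No paired analysis was possible because the table holds no value per library, and for the same reason no replicate could be left out. The levels with the fewest reads behind them were those of mdy (240 normalized counts or fewer per group) and of Lsd-1 at Pe day 0 (212).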

Other observations

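Several genes that act next to the 9, chosen here after their values were seen, were lower at Pe day 0 where the partner described above was not called. The authors' deposited table had all 3 DGAT2-family genes lower at Pe day 0, with log2 fold changes of -3.05 for CG1946, -2.45 for CG1942 and -1.37 for CG1941 (SE 0.19, 0.20 and 0.16), beside -0.28 (SE 0.21) for mdy. Of all genes tested 23.6% were lower. Library totals add 0.67 to each value at day 0, giving -2.39 for CG1946 and 0.39 for mdy, the latter not called. The 3 DGAT2-family genes are related in sequence, so the authors' counting could have divided reads among them. At Pe day 3 none of these 3 was called in the authors' deposited table (0.13, 0.12 and -0.24), and 0 had an unadjusted DESeq2 p under 0.05. Thiolase, the beta subunit gene of the trifunctional protein, stood at -0.32 at day 0 (SE 0.11) in the authors' deposited table, beside -0.10 (SE 0.15) for Mtpalpha. With library totals both turned and were called higher, at 0.35 for Thiolase and 0.56 for Mtpalpha.

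The lipase genes of droplets were also chosen after their values were seen. On the authors' scale 0 of the 10 genes of the droplet list were called higher at Pe day 0, beside 23.0% of all genes tested. With library totals 2 of the 10 were higher and 3 lower, beside 53.4% and 8.97% of all genes. In the authors' deposited table bmm, for the fly adipose triglyceride lipase, fell by 0.71 (SE 0.16), which becomes -0.04 with library totals. Hsl, for hormone-sensitive lipase, stood at 0.15 (SE 0.15) on the authors' scale and was not called there. Library totals add 0.67 to this value, a clear shift upward beside its standard error. ATPCL, which makes the acetyl-CoA used by ACC, was at 0.05 (SE 0.13) at day 0 and -0.11 (SE 0.13) at day 3 in the authors' deposited table, called in neither. Library totals add 0.67 to the ATPCL value at day 0 and 0.03 at day 3, so its level at day 0 depends on the scale.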
